A study of Homo sapiens with 3 samples.

Results

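The muscle-restricted miRNAs miR-1, miR-206 and miR-133 were examined in 3 small RNA libraries of HCCLM3. This is a metastatic cell line of human hepatocellular carcinoma (HCC). The members were chosen by name, as hsa-miR-1, hsa-miR-206, hsa-miR-133a and hsa-miR-133b with any arm suffix, which gave 4 of the 1921 names listed in each library. The family was picked from these same data with the higher level of hsa-miR-1 in subclone1 already known, so its levels and ratios are given as a description and not as a test. The parent strain was labelled as low in metastasis, subclone1 as metastatic to the lung, and subclone2 as metastatic to both lung and celiac lymph nodes. The study's text, in contrast, describes its parental line, a derivative of HCCLM3 that carries red fluorescent protein, as highly metastatic. It also describes lines grown from metastases in nude mice, and single-cell clones made from those lines. The labels do not say which of these derived lines were sequenced here. All 3 strains were cultured in DMEM with no treatment given in the labels, and each was sequenced once. With 1 library per strain there was no replicate check of any ratio below. The file totals were 7902438 counts for the parent, 3570864 for subclone1 and 4568075 for subclone2, and levels are given as CPM, the count divided by the file total and multiplied by 1000000. One count was therefore worth 0.127, 0.280 and 0.219 CPM. Intervals are exact 95% intervals, and limits for a count of 0 are those of 3 counts. Both cover counting error only.

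These miRNAs are the classical myomiRs. miR-1 and miR-133 are transcribed together and are abundant in heart and skeletal muscle, where miR-1 favors differentiation of muscle cells and miR-133 is known for its part in their proliferation. miR-206 and miR-133b form a second pair that is largely restricted to skeletal muscle. In tumors outside muscle, miR-1 and miR-206 are usually low and have been described as growth-restraining, with the receptor tyrosine kinase MET among the known targets of miR-1. A miRNA pairs with its targets mainly through the seed, bases 2 to 8 from the 5′ end.

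The mature sequences are shown because they divide the members into 2 seed families and show how close the members are to each other. They are from RefSeq (GRCh38.p14), 5′ to 3′, with the seed in capitals. The count tables hold names and no sequences. Their names hsa-miR-1 and hsa-miR-133a carry no arm and were matched to the 3p strands.
hsa-miR-1: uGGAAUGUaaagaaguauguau
hsa-miR-206: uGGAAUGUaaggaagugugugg
hsa-miR-133a: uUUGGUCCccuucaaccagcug
hsa-miR-133b: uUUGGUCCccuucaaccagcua

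hsa-miR-1 and hsa-miR-206 shared the seed GGAAUGU and 18 of 22 bases. Counted from the 5′ end, with the base of hsa-miR-1 first, they differed at A11G, A17G, A21G and U22G, and their longest shared run was 10 bases. No other mature sequence of the RefSeq table shared a longer run with hsa-miR-1, and the next was hsa-miR-452-3p with 9 bases. The third carrier of this seed was hsa-miR-613, printed here because it would share seed-matched targets. It had 0 counts in every library.
hsa-miR-613: aGGAAUGUuccuucuuugcc

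hsa-miR-133a and hsa-miR-133b shared the seed UUGGUCC and 21 of 22 bases, and differed by G22A alone. A read that ends before its last base cannot be placed between them, and how such reads were counted is not given in the sources used here. Their separate counts are thus uncertain.

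Each of hsa-miR-1 and hsa-miR-133a is made from more than one gene. The hairpins of hsa-miR-1 are given here with the mature strand in capitals, since the strand is the same in both and a count cannot be assigned to either gene. Positions are those of GRCh38 in GENCODE 29, while the submitters' processing notes name hg19, so they describe the genes and not the count tables. MIR1-1 lies on chromosome 20 at 62554306 to 62554376 (plus strand), in an intron of its host transcript MIR1-1HG. MIR1-2 lies on chromosome 18 at 21829004 to 21829088 (minus strand), where it overlaps an exon of MIR133A1HG and an intron of MIB1 on the opposite strand.
MIR1-1: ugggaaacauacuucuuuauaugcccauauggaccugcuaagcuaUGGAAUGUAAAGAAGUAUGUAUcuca
MIR1-2: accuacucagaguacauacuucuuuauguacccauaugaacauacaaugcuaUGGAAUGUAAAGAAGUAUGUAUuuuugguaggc

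Each hairpin of hsa-miR-1 has a hairpin of hsa-miR-133a beside it on the same strand. MIR133A2 (chromosome 20, 62564912 to 62565013) is 10535 bases from MIR1-1 and overlaps an exon of MIR1-1HG. MIR133A1 (chromosome 18, 21825698 to 21825785) is 3218 bases from MIR1-2 and overlaps an exon of MIR133A1HG. The other pair is on chromosome 6, where MIR206 (52144349 to 52144434) is separated by 4488 bases from MIR133B (52148923 to 52149041), both on the plus strand. MIR206 overlaps no other annotated gene, and MIR133B lies opposite to an intron of LINCMD1.

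The seed family of miR-1 accounted for nearly all of the signal, and hsa-miR-1 for most of that. hsa-miR-1 was read 53 times in the parent, 77 times in subclone1 and 32 times in subclone2. The parent thus stood at 6.71 CPM (5.02 to 8.77). Subclone1 stood at 21.6 CPM (17.0 to 27.0) and subclone2 at 7.01 CPM (4.79 to 9.89). Subclone1 was the high library, with an interval apart from both others, whereas the parent and subclone2 overlapped. At the parent's level, 23.9 counts would stand in subclone1 and 30.6 in subclone2.

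hsa-miR-206, the skeletal muscle member of this seed family, had 6, 5 and 3 counts in parent, subclone1 and subclone2. Its level was 0.759 CPM (0.279 to 1.65), 1.40 CPM (0.455 to 3.27) and 0.657 CPM (0.135 to 1.92), and all intervals overlapped. Of the counts of hsa-miR-1 and hsa-miR-206 together it made up 10.2% (3.82 to 20.8) in the parent. The share was 6.10% (2.01 to 13.7) in subclone1, and subclone2 had 8.57% (1.80 to 23.1). No difference in this share was detectable at these depths.

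hsa-miR-133a, which shares its transcripts with hsa-miR-1, had 1 count in each library, or 0.127, 0.280 and 0.219 CPM. These CPM values differ only through the library totals, and the highest upper bound was 1.56 CPM, in subclone1. Of the counts of hsa-miR-1 and hsa-miR-133a together, hsa-miR-133a held 1.85% (0.0469 to 9.89) for the parent, 1.28% (0.0325 to 6.94) for subclone1 and 3.03% (0.0767 to 15.8) for subclone2. This compares reads of different miRNAs, and adapter ligation in such kits favors some RNA ends over others. hsa-miR-133b was not detected, and 0 counts allow up to 0.380 CPM for the parent, 0.840 for subclone1 and 0.657 for subclone2 (3 counts of the total).

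**Figure D1:**
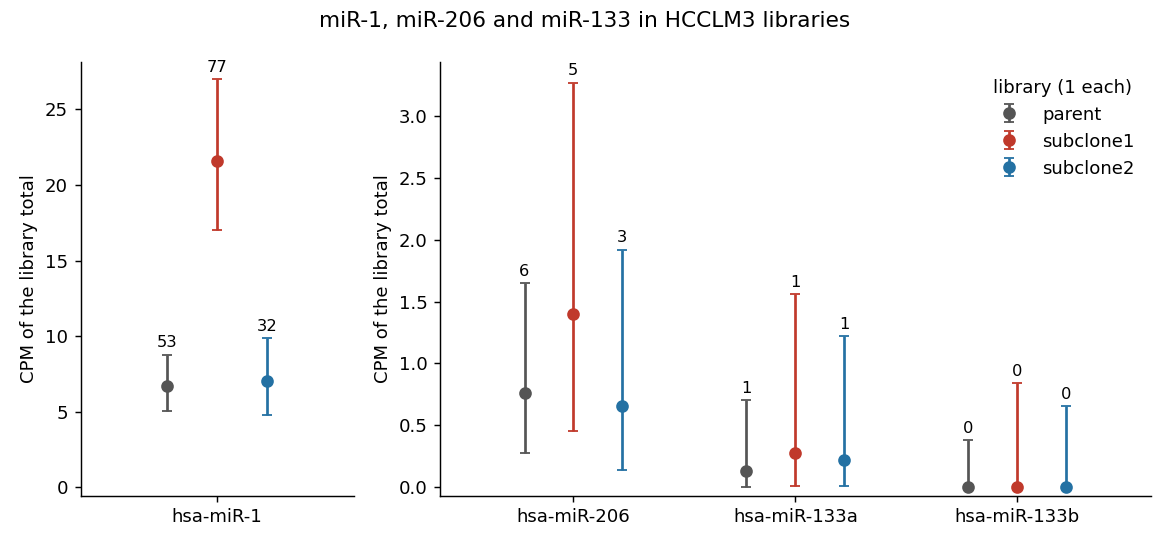
Level of each member (y axis, CPM of the library total) in the parent, subclone1 and subclone2 libraries; points are single libraries, bars are exact 95% counting intervals (for 0 counts, up to the limit of 3 counts) and the numbers above them are read counts. hsa-miR-1 stands at 21.6 CPM in subclone1 against 6.71 and 7.01 CPM in the others, while the bars of hsa-miR-206, hsa-miR-133a and hsa-miR-133b overlap between libraries.

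All together the members held 60, 83 and 36 counts in parent, subclone1 and subclone2, of which hsa-miR-1 contributed 88.3%, 92.8% and 88.9%. Even so, hsa-miR-1 was not among the most abundant miRNAs, although it stood above the middle of the order of counts. More counts were held by 28.5% of the 743 names detected in the parent, by 22.5% of 670 in subclone1 and by 30.4% of 675 in subclone2. In the parent it stood level with hsa-miR-122-5p, the main miRNA of hepatocytes, and hsa-miR-3171 at 53 counts, just under hsa-miR-3179 (55) and hsa-miR-324-5p (54). In subclone1 its neighbors were hsa-miR-877-5p (80 counts), hsa-miR-125b-2-3p (78), hsa-miR-501-3p (75) and hsa-miR-548a-3p (75). In subclone2 they were hsa-miR-224-3p and hsa-miR-3928 (33 counts each) and hsa-miR-504 and hsa-miR-505-3p (32 each). hsa-miR-206 lay just below the middle of the order, where 52.1% to 61.5% of the detected names had more counts. hsa-miR-133a lay at its lower end, among the names with 1 count, and 77.6% to 82.8% had more.

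To ask how the lung-tropic strain differed from the parent, the ratio of each member was taken between the libraries, with its exact conditional binomial interval. Names that differed by 2-fold or more, with an interval that did not hold 1, were called. hsa-miR-1 was 3.22 times as high in subclone1 as in the parent (2.24 to 4.65), a log2 ratio of 1.68 with 0.5 counts added to each library. It was the 1 member called out of 4. Over all 825 names detected in either library 8.12% were called in one direction or the other, and among 192 names with a mean of at least 10 CPM 13.0% were. The median log2 ratio of the 825 names was 0.01. hsa-miR-1 reached a mean of 10 CPM in this pair only through its level in subclone1. Over all 825 names, 132 had a higher log2 ratio than hsa-miR-1 and 692 a lower one. The other members gave no call. The ratio of hsa-miR-206 was 1.84 (0.445 to 7.25), and that of hsa-miR-133a was 2.21 (0.0282 to 174) on 1 count in each library. These intervals hold both no difference and the ratio of hsa-miR-1.

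In subclone2 against the parent, none of the members was called. hsa-miR-1 had a ratio of 1.04 (0.652 to 1.65), so a difference beyond 1.65-fold upward in subclone2 lay outside its counting interval. hsa-miR-206 had 0.865 (0.140 to 4.05) and hsa-miR-133a 1.73 (0.0220 to 136). The background was 9.07% called of 827 names, and 10.7% of 187 names with at least 10 CPM, a level that hsa-miR-1 did not reach in this pair. The median log2 ratio of all names was -0.18, against 0.07 for hsa-miR-1.

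The comparison of the subclones sets the strain labelled with lung and lymph node metastasis beside the strain labelled with lung metastasis. With 1 library per strain, tropism cannot be told apart from any other difference between them. hsa-miR-1 was lower in subclone2 than in subclone1, with a ratio of 0.325 (0.208 to 0.497) and a log2 ratio of -1.61, and was again the 1 member called. Of 780 names 4.23% were called, and 5.76% of 191 names with at least 10 CPM. Over all 780 names, 125 had a lower log2 ratio than hsa-miR-1 and 654 a higher one. The 125 include names with 0 counts against 1, and 28 names in all were called lower. Since the median log2 ratio of all names was -0.22, the ratio of hsa-miR-1 is best set against that value. TMM scaling moved that median by 0.23 and gave hsa-miR-1 a log2 ratio of -1.38. hsa-miR-206 had a ratio of 0.469 (0.0728 to 2.41) and hsa-miR-133a of 0.782 (0.00996 to 61.4), neither of them called. The ratios to the parent and to subclone1 rest on shared libraries, and the calls of hsa-miR-1 against the parent and between the subclones both rest on the same 77 counts of subclone1.

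**Figure D2:**
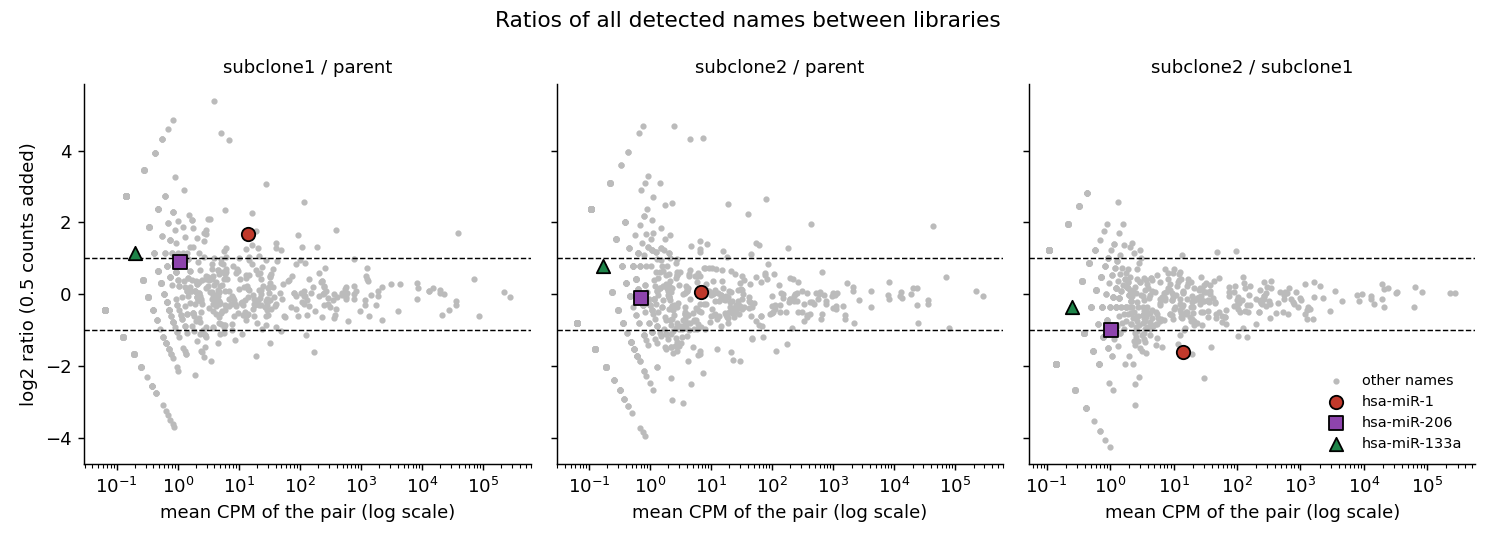
Log2 ratio of each detected name (y axis, 0.5 counts added) against its mean CPM in the pair (x axis, log scale) for subclone1 over parent, subclone2 over parent and subclone2 over subclone1; each gray point is a miRNA name, colored symbols are the detected members and dashed lines mark 2-fold. hsa-miR-1 lies at 1.68, 0.07 and -1.61 in the panels from left to right, and the spread of gray points widens at low CPM where hsa-miR-206 and hsa-miR-133a lie.

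As members with the same seed can act on the same targets, their counts were also summed. miR-1 with miR-206 gave 7.47 CPM for the parent (5.68 to 9.63), 23.0 for subclone1 (18.3 to 28.5) and 7.66 for subclone2 (5.34 to 10.7). The summed ratio was 3.08 (2.17 to 4.37) for subclone1 against the parent and 1.03 (0.656 to 1.59) for subclone2 against the parent. miR-133a with miR-133b gave 1 count per library, all from hsa-miR-133a.

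The names whose pattern was closest to that of hsa-miR-1 were then sought among 334 names with at least 30 counts in all. Likeness was the distance between the shares of a name's summed CPM that fell to each of the 3 libraries. For hsa-miR-1 19.0% fell to the parent, 61.1% to subclone1 and 19.9% to subclone2. The closest was hsa-miR-1303 (18.8%, 60.5% and 20.7%, distance 0.011), which had only 11, 16 and 7 counts. It was followed by hsa-miR-378c (18.4%, 62.1% and 19.5%, distance 0.012), with 8.86, 29.96 and 9.41 CPM. The next was hsa-miR-210, the main miRNA induced by hypoxia (23.2%, 56.6% and 20.3%, distance 0.062), with 23.3, 56.8 and 20.4 CPM. Of 825 names compared with the parent, 45 were called higher in subclone1. Of 780 names compared between the subclones, 28 were called lower in subclone2. In all, 12 names had both calls, these 4 among them, and both calls rest on the same subclone1 library. With TMM scaling, 16 names were called lower in subclone2 than in subclone1, and the 12 were not recounted under it. The 12 also hold hsa-miR-4439 and hsa-miR-873-5p, with 5 and 6 counts in subclone1 and 0 in the others. With 3 libraries this likeness describes the order of levels and nothing more.

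The level of hsa-miR-1 was next set beside other muscle miRNAs and beside miRNAs restricted to other cell types. hsa-miR-208a and hsa-miR-208b, which lie within genes of cardiac myosin heavy chains, had 0 counts in every library. hsa-miR-499a-5p, also from a myosin gene, had 5, 3 and 5 counts in parent, subclone1 and subclone2, and hsa-miR-499b-5p had 1, 0 and 2. hsa-miR-499a-3p and hsa-miR-499b-3p had none. The list's signal came mainly from hsa-miR-486-5p, which is abundant in muscle and in red blood cells, at 16.3, 9.80 and 15.3 CPM. Its other arm, hsa-miR-486-3p, had 3.54, 1.68 and 1.97 CPM. The 8 names of this list thus summed to 20.6 CPM for the parent (17.6 to 24.0), 12.3 for subclone1 (8.95 to 16.5) and 18.8 for subclone2 (15.1 to 23.3), with subclone1 the lowest of the libraries and its interval overlapping that of subclone2.

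The smooth muscle and stromal names summed to 9.24, 4.48 and 4.16 CPM, again without a maximum in subclone1. hsa-miR-143-3p of smooth muscle had 8, 1 and 1 counts and hsa-miR-145-5p had 0, 1 and 0. hsa-miR-199a-3p and hsa-miR-199b-3p had identical counts (31, 6 and 9) and enter that sum under both names. The endothelial hsa-miR-126-5p had 4, 7 and 0 counts and hsa-miR-126-3p had 1, 1 and 2. Among 10 names of blood cells the highest was hsa-miR-223-3p with 2, 4 and 5 counts, followed by hsa-miR-142-5p with 2, 1 and 0, and the list summed to 0.759, 1.96 and 1.53 CPM. The neuronal hsa-miR-9-5p had 3, 4 and 2 counts, hsa-miR-9-3p had 3, 1 and 1, and hsa-miR-124-3p had 0, 1 and 0. Summed, the endothelial names had 0.633, 2.24 and 0.438 CPM and the neuronal names 0.759, 1.68 and 0.657, so that the endothelial, blood and neuronal lists, like hsa-miR-1, were highest in subclone1. Their intervals overlapped between all libraries, and no library held more than 8 counts of any of these lists. The endocrine hsa-miR-375 had 20, 4 and 5 counts, and 10 names of the pluripotent miR-302 and miR-367 cluster had 0 throughout. hsa-miR-1 was therefore above the summed level of the endothelial, blood, neuronal, endocrine and pluripotent lists in every library. It was below the epithelial list in every library (79.8, 120 and 141 CPM in parent, subclone1 and subclone2). It was also below the other muscle miRNAs in the parent and subclone2, and below the smooth muscle and stromal names in the parent. Read levels of different miRNAs are compared here, with the limit from ligation given above. The part of other cell types in the counts of hsa-miR-1 was not tested.

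As to the labelled cell type, hsa-miR-122-5p had 53, 19 and 18 counts in parent, subclone1 and subclone2, or 6.71, 5.32 and 3.94 CPM, and the other hepatocyte names (hsa-miR-122-3p and both arms of hsa-miR-885) had 0. The defining miRNA of hepatocytes was thus low in these libraries, at the level of hsa-miR-1 in the parent and below it in subclone1. In subclone2 it was also lower, but the intervals overlapped (2.34 to 6.23 CPM against 4.79 to 9.89 for hsa-miR-1). These are different miRNAs, so the preference of ligation for some RNA ends limits this comparison too. The epithelial list held 10 names, and reads were found for 7, 7 and 6 of them (parent, subclone1, subclone2). No read fell to hsa-miR-141-5p, hsa-miR-200a-5p or hsa-miR-200c-5p. hsa-miR-200a-3p had 27.8, 44.8 and 61.1 CPM, hsa-miR-200c-3p had 26.6, 37.8 and 38.1, and hsa-miR-200b-3p had 16.5, 24.1 and 26.1. For none of these was subclone1 the highest library, although hsa-miR-200b-3p and hsa-miR-200c-3p were close in the subclones. hsa-miR-200b-5p (4.05, 8.40 and 9.19 CPM) and hsa-miR-429 (2.40, 3.36 and 3.72 CPM), of the same list, were likewise lowest in the parent. hsa-miR-141-3p was instead lowest in subclone1, at 2.28, 1.12 and 3.28 CPM (18, 4 and 15 counts). hsa-miR-203, also of this list, had 2, 1 and 0 counts.

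**Figure D3:**
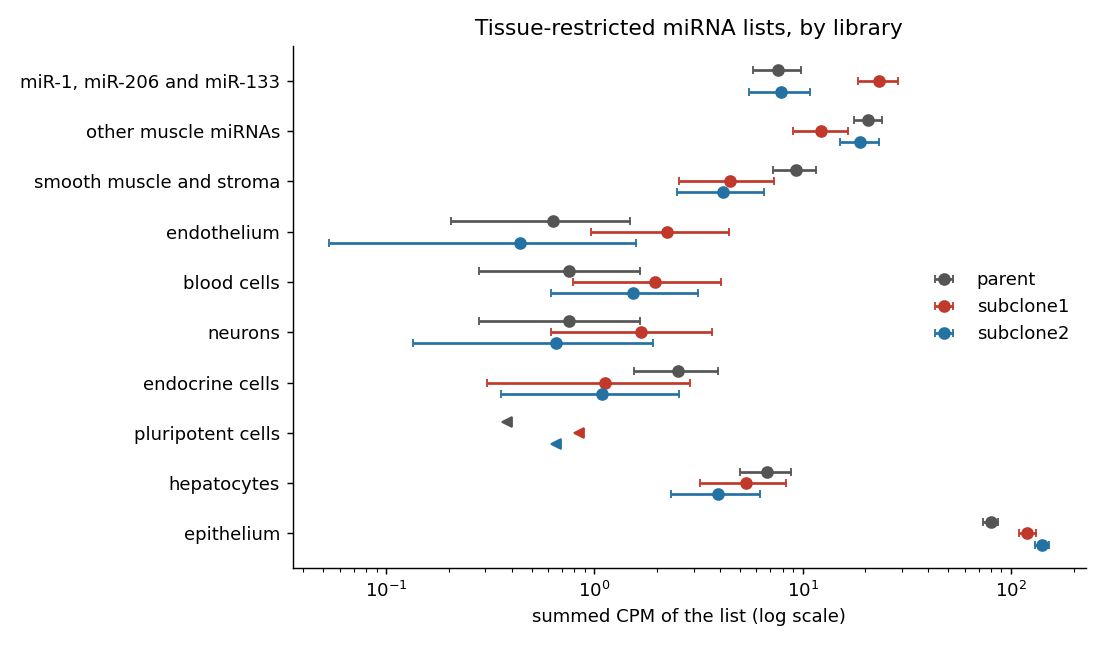
Summed CPM (x axis, log scale) of the members and of 9 lists of tissue-restricted miRNAs in the parent, subclone1 and subclone2; points are single libraries, bars are exact 95% counting intervals, and left-pointing triangles are the upper limits (3 counts) of lists with 0 counts. The members sum to 7.59, 23.2 and 7.88 CPM with subclone1 highest, whereas the other muscle miRNAs sum to 20.6, 12.3 and 18.8 CPM with subclone1 lowest.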

How the data were processed

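Small RNA libraries were made from Trizol-extracted RNA of cultured cells (1 ug of total RNA, TruSeq Small RNA kit). The authors deposited raw read counts per mature miRNA name, 1 file per library, unscaled. Their processing notes name CASAVA 1.4 and hg19 without a role; trimming, aligner, mismatch limit, miRBase release and the treatment of reads matching several miRNAs are not given in the sources used here.

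Levels were scaled to the file total. Shares and CPM carry Clopper-Pearson intervals and ratios carry exact conditional binomial intervals (scipy 1.17.1), and without molecular identifiers these cover counting error only. With 1 library per strain no test was run. A call required at least 2-fold and an interval without 1, over all names with a count in either library. TMM and median-of-ratios factors were from edgeR 4.0.16 (R 4.3.3). Members, lists and alternatives were chosen with earlier results of these data known. Named miRNAs were all members, every muscle name, the leading names of each list (up to 3), the 3 names closest in pattern to members with at least 30 counts, same-seed names and, for hsa-miR-1, the 2 neighbors on each side in the order of counts (ties by name). Neighbors of hsa-miR-206 and hsa-miR-133a, tied with many names, were left out. Sequences were from RefSeq (GRCh38.p14), matched for 4 of 4 members, and hosts from GENCODE 29.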

Additional observations from a re-analysis of the deposited data

How the results depend on the processing

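No paired analysis was possible because each strain has 1 library, and for the same reason no library could be left out. TMM and median-of-ratios scaling, the total without the 10 most abundant miRNAs, and 5 counts added were tried on the log2 ratios of the detected members and both seed sums. All 60 values stayed within the counting interval of the reported ratio. For hsa-miR-206 and hsa-miR-133a those intervals were too wide for such shifts to leave them, so their values are no check. The log2 intervals of hsa-miR-1 were also wide beside the shifts (-2.26 to -1.01 between the subclones). Staying within them is thus no check of the scaling. The miR-133 sum repeats hsa-miR-133a, and the sum of miR-1 and miR-206 is mostly hsa-miR-1. The values of hsa-miR-1 ran from 1.61 to 1.65 in subclone1 against the parent. They ran from 0.14 to 0.24 in subclone2 against the parent, and from -1.50 to -1.38 between the subclones. The sign of hsa-miR-206 in subclone2 against the parent changed with the setting (-0.10 reported, 0.07 with TMM, 0.33 with 5 counts added), and no direction is drawn from it. The median of all names moved by 0.17 with TMM in subclone2 against the parent and by 0.23 between the subclones, where calls of all names then split into 9 higher and 16 lower instead of 5 and 28. The number of members called stayed at 1, 0 and 1 in the order of comparison under each of these and with members summed by seed. A 1.5-fold threshold gave the same numbers by construction, since the interval of every uncalled detected member held 1. That setting is therefore no check. With a minimum mean of 10 CPM it was also 1, 0 and 1, but hsa-miR-1 met that minimum only in the pairs that hold subclone1, so this setting is no check. With a 4-fold threshold it was 0 in every comparison, by construction. With at least 10 counts required, 1 member instead of 3 was detected in each library. Depth limits hsa-miR-206 and miR-133, whose 0 to 6 counts can show only very large differences.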
